A study of Homo sapiens with 18 samples.

Results

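The mitochondrial ribosomal protein genes were examined in RKO-iCas9 cells with QuantSeq, a method that sequences the 3′ ends of mRNA, in 18 libraries. Members were the gene symbols that consist of MRPL or MRPS, a number and at most 1 further letter, with at least 50 reads summed over the 18 libraries. All 78 symbols of this form passed, 49 MRPL and 29 MRPS, of 39859 symbols listed and 14495 with at least 50 reads. The lowest were MRPS23 with 271 reads and MRPL39 with 475, so no symbol of this form lay just outside the threshold. The family took 636432 reads, against 1419 on the 20 of its 41 pseudogene symbols that had a read.

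RKO cells come from a human colon carcinoma, and the iCas9 derivative was grown from 1 clone and expresses Cas9 under doxycycline. They carried a guide against ERH (sgERH), a small conserved protein that binds RNA-processing complexes, or against the AAVS1 safe-harbour locus (sgAAVS1, the control), and in every group they received 100 ng/mL doxycycline for 5 days before they were left non-treated (NT) or given 25 ng/mL IFNγ or 10 ng/mL IL-1β for 4 h. The sgRNA-carrying cells were sorted in bulk, so a group can hold edited and unedited cells. Of 3 labelled biological replicates in each of the 6 groups, the study removed 1 in each of 3 groups after a principal component analysis (replicate 3 of sgAAVS1_IL-1β, replicate 1 of sgAAVS1_NT, replicate 2 of sgERH_IFNγ), and the same 15 libraries were used here, as 2 in each of those groups and 3 in each of the others. The sources used here do not describe separate cultures for the replicates, and p-values then reflect only how far these samples scatter, possibly for technical reasons.

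Total counts were 4987127 to 5986338 in the 15 libraries. ERH itself lay between 515 and 592 CPM (reads scaled to a common library total) in the 7 sgAAVS1 libraries and between 257 and 355 in the 8 sgERH libraries, and an edited gene can keep its 3′ counts. With the TMM scaling explained further on, the ranges were 537.3 to 642.5 and 252.9 to 340 CPM. The log2 fold change with that scaling was -1.02 ± 0.07 (SE) on average over treatments. Among the libraries left out ERH was at 676 CPM by library totals in sgAAVS1_IL-1β replicate 3 and at 126 in sgERH_IFNγ replicate 2. In the library labelled sgAAVS1_NT replicate 1 it was at 52.7, which goes against that label but is also below every sgERH library. That library held the fewest genes with at least 10 reads, 9657, and had 26.3% multimapping reads. Of the 10 colon epithelial markers listed for the check of the cells, KRT18, KRT8, EPCAM and CDX2 were present. The sum over the 10 was 120 to 145 CPM in sgAAVS1 and 106 to 126 in sgERH. KRT19, KRT20 and CDX1 had 0 reads, and CDH1, VIL1 and LGR5 had 1 read each over the 15 libraries. Leukocyte markers reached at most 0.568 CPM and fibroblast or endothelial markers at most 0.954 CPM in any library. The library of sgERH_IL-1β replicate 2 stood apart among the 15, with 23.2% multimapping reads against 20.4% to 21.8% in the others.

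Mitochondrial ribosomes translate the few proteins that mitochondrial DNA encodes, which are subunits of the respiratory chain and ATP synthase. Their RNA comes from the mitochondrial genome, while every one of their proteins is encoded in the nucleus, made in the cytosol and imported. Some of these proteins have bacterial counterparts, others occur only in mitochondria, and the names MRPL and MRPS mark the large and the small subunit, with exceptions such as MRPS18A and MRPS30, which sit in the large subunit, and MRPS36, now assigned to the 2-oxoglutarate dehydrogenase complex.

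All 78 members were found in GENCODE 44 on GRCh38, scattered over 21 chromosomes. They were short genes, with a median span of 11940 bases and 5 exons, against 29098 bases and 8 exons for the 11930 tested genes that could be placed. A protein-coding gene started on the other strand between 1000 bases upstream and 200 bases downstream of the start for 26 of the 78 members (33.3%), against 14.3% of the tested protein-coding genes. Of the members, 40 overlapped a gene on the other strand and 24 one on the same strand. These overlaps are of whole gene spans, while reads were counted in windows at 3′ ends, and overlap of those windows was not checked. Whether the counting used strand is not given in the sources used here. It is therefore not known whether member counts hold reads of such partners.

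RefSeq promoter windows (GRCh38.p14, 250 bases before to 50 after the start, 1 window per gene) were matched for 69 members. They were searched on both strands for the letters CCGGAAG (the ETS motif, bound by factors such as GABP), AAGATGGC (YY1), CACGTG (the E-box of MYC and USF) and the palindrome of NRF1. The ETS letters stood in 30 of the 69 windows (43.5%), against 10.9% of 27305 promoters and 21.6% of the 9138 promoters of tested genes. The YY1 letters stood in 21 (30.4%), against 3.13% and 6.29%. For the E-box the shares were 7.25%, 7.42% and 10.7%, and for NRF1, whose letters were in the window of 1 member, they were 1.45%, 1.39% and 2.54%. In 8 members the ETS and YY1 letters occurred in the same window, and in 0 of these did the matches share bases. Windows of 6 members are shown 5′ to 3′ on the gene's strand, with matches to the 4 motifs in capitals, because they belong to members whose 3′ counts fell or rose in sgERH in the test given further on: MRPS34 (chr16:1773085-1773384, − strand), MRPL20 (chr1:1407244-1407543, − strand), MRPL51 (chr12:6493213-6493512, − strand) and MRPL11 (chr11:66438799-66439098, − strand), which were lower in sgERH, and MRPS12 (chr19:38930694-38930993, + strand) and MRPS18A (chr6:43687742-43688041, − strand), which were higher.
MRPS34: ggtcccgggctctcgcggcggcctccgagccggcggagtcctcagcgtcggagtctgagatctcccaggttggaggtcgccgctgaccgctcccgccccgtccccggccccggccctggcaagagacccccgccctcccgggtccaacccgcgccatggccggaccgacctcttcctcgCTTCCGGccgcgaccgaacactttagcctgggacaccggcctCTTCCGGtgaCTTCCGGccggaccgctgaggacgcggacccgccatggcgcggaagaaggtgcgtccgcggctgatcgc
MRPL20: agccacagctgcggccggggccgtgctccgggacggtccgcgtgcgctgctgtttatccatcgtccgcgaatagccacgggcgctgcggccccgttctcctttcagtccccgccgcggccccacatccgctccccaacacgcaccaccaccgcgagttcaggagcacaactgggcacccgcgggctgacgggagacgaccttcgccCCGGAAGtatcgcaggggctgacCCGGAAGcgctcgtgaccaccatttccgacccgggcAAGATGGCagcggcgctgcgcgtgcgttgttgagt
MRPL51: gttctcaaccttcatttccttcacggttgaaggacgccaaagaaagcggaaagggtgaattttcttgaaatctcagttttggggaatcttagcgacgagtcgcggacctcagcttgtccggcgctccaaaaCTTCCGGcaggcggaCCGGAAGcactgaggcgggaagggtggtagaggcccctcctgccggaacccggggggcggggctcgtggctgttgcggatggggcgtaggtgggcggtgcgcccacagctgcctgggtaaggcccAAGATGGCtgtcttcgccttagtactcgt
MRPL11: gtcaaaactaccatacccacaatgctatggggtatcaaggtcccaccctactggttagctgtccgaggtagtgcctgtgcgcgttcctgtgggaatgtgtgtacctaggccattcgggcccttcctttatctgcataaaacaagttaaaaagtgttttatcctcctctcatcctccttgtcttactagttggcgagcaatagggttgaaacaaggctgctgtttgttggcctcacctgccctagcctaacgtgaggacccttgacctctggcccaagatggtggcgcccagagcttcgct
MRPS12: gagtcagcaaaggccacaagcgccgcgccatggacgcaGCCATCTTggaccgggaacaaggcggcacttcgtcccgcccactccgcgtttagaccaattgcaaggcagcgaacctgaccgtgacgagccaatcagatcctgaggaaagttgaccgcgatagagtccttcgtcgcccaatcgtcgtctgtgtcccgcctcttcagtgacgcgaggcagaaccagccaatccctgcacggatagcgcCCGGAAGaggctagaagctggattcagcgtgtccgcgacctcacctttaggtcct
MRPS18A: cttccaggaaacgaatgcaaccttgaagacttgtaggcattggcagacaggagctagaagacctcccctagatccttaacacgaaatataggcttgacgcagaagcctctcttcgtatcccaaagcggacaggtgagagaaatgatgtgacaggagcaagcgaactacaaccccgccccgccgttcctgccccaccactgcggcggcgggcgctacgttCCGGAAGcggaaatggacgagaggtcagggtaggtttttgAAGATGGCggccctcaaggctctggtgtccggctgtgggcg
MRPS34 carried 3 ETS matches, MRPL20 and MRPL51 each held ETS and YY1 letters, and the window of MRPL11, which also fell, held none of the 4. The windows of the members that rose held ETS letters in 4 of 4, and those of the members that fell in 11 of 26, so the same letters stood on both sides. A match describes these letters and is not a binding site.

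All 78 passed the filter on low counts and had a read in each of the 15 libraries used. Their mean CPM over the 15 libraries, scaled by TMM factors (trimmed mean of M values, edgeR's correction of library size), had a median of 60.7, against 19.4 for the 13370 genes tested. Reads were counted in windows at 3′ ends and CPM were not divided by length, so the order of the members is one of 3′ counts and not of transcript abundance. The highest values were 369 CPM for MRPL41, 319 for MRPS21, 239 for MRPL51, 213 for MRPL21 and 205 for MRPS2, and the lowest were 2.91 for MRPS23, 5.80 for MRPL39, 6.67 for MRPS31, 13.0 for MRPL23 and 15.1 for MRPS36. Multimapping reads made up over 20% for 5 members, MRPS18B (100%), MRPL45 (98.9%), MRPS36 (97.5%), MRPL23 (87.1%) and MRPL36 (26.9%), whose values are uncertain, and under 1% for 67.

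The family's share of all reads was 0.638% ± 0.006 (SD, n = 2) in sgAAVS1_NT and 0.622% ± 0.006 (SD, n = 3) in sgERH_NT. With IFNγ it was 0.631% ± 0.005 (SD, n = 3) in sgAAVS1 and 0.632% ± 0.005 (SD, n = 2) in sgERH, and with IL-1β it was 0.629% ± 0.001 (SD, n = 2) and 0.624% ± 0.008 (SD, n = 3). The 7 sgAAVS1 libraries ranged from 0.627% to 0.642% and the 8 sgERH libraries from 0.615% to 0.636%, so the guides overlapped. In such bulk samples fewer cells with a transcript and less of it per cell cannot be told apart.

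The first comparison asked what targeting ERH did to these genes, averaged over the 3 treatments. A member is said to have fallen or risen in sgERH at an adjusted p of at most 0.05 (edgeR's quasi-likelihood test with TMM factors, Benjamini-Hochberg adjustment over all 13370 genes). By this rule 29 members fell and 4 rose. Of all genes tested, 23.2% fell and 25.5% rose, while of the members 37.2% fell and 5.13% rose. The direction depended on the scaling: with library totals and no TMM factors, 13 members were lower and 14 higher, against 14.2% and 37.5% of all genes. The median log2 fold change of the 78 members was -0.11 with TMM and 0.04 with library totals, beside 0.04 and 0.20 for all genes. The difference from the median gene was -0.155 under both. A change of scaling shifts all genes nearly alike, so this equality was fixed by construction and says nothing about which scaling is right. TMM factors were 0.916 to 0.967 in sgAAVS1 and 1.02 to 1.08 in sgERH libraries, and all sgERH libraries held more genes with at least 10 reads (12474 to 12694) than the sgAAVS1 libraries (11842 to 12127). Their part in the result was not tested. With all 18 libraries, 9 members fell and 0 rose by edgeR.

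**Figure D1:**
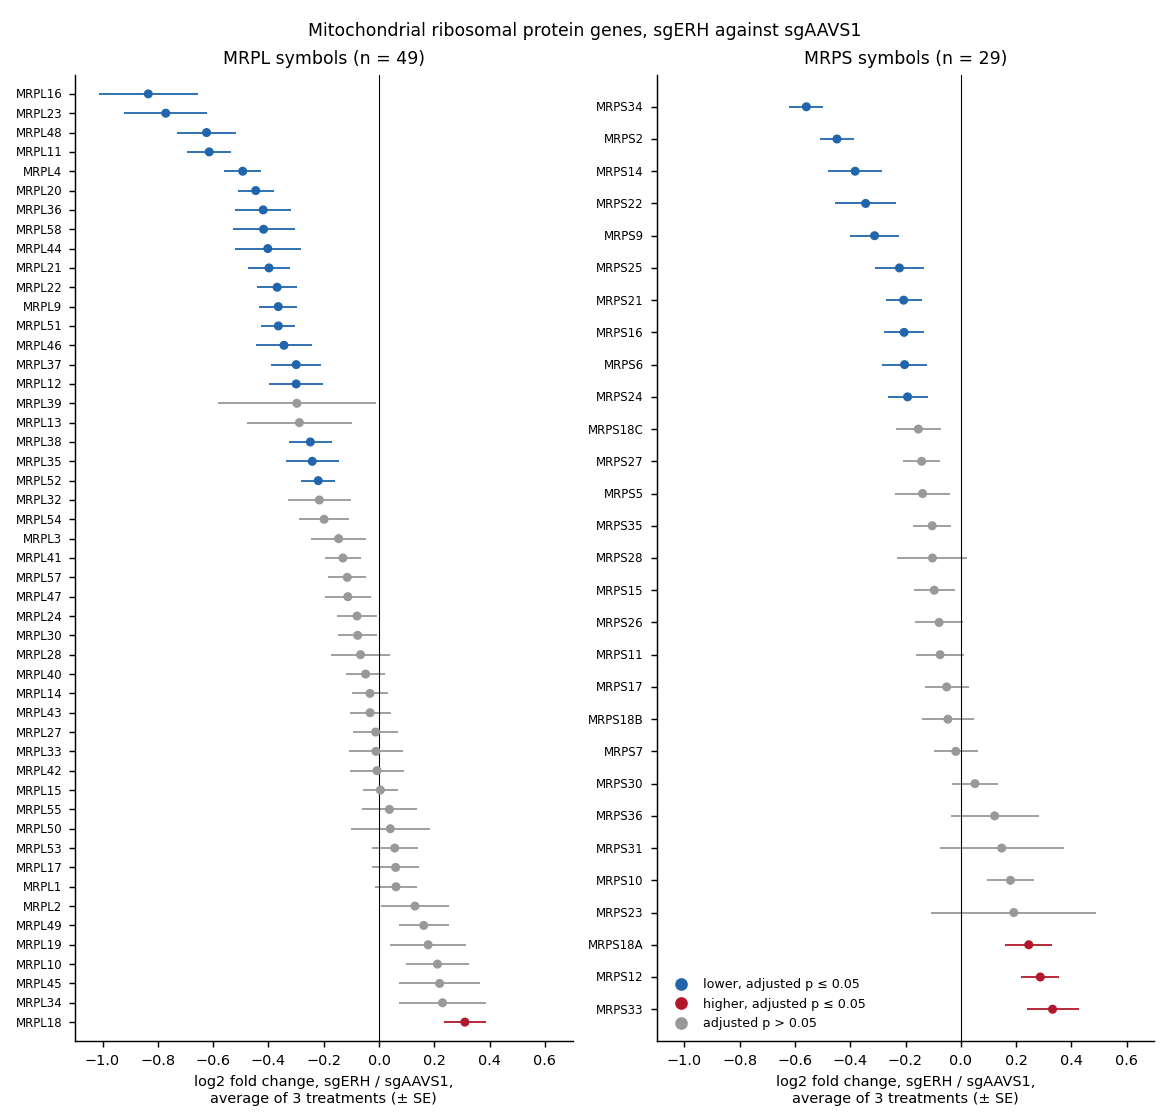
Log2 fold change of each of the 78 members, sgERH against sgAAVS1 on average over 3 treatments (x axis, with TMM scaling), with standard errors as bars; members are sorted by value and coloured by the adjusted p of edgeR's test. The points run from -0.83 for MRPL16 to 0.33 for MRPS33, and 29 are lower and 4 higher at an adjusted p of at most 0.05, or 13 lower and 14 higher with library totals.

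Members of both subunits fell. By symbol, 19 of 49 MRPL members fell and 1 rose, with a median log2 fold change of -0.13, and of the MRPS members 10 of 29 fell and 3 rose, with a median of -0.10. One of these 3, MRPS18A, sits in the large subunit. Members were also grouped by the number in their symbol, a rough stand-in for origin chosen after the values were seen. Of 28 large subunit members with low numbers, taken as having a bacterial counterpart, 11 fell. Of the 21 with higher numbers, some of which may have such a counterpart too, 8 fell. In the small subunit 7 of 17 whose numbers were taken as bacterial fell, as did 3 of 9 with other numbers. With library totals the 13 lower members were 11 MRPL, namely MRPL4, MRPL9, MRPL11, MRPL16, MRPL20, MRPL21, MRPL22, MRPL23, MRPL36, MRPL48 and MRPL51, and 2 MRPS, MRPS2 and MRPS34, and all of them had also fallen with TMM. All 4 that rose with TMM were higher with library totals too.

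MRPS34, a mitochondria-specific protein of the small subunit, had the smallest adjusted p of the 78. The gene (ENSG00000074071.15) lies on chromosome 16 from 1771890 to 1773150 on the − strand, in 3 exons, and overlaps EME2 on the other strand. Its levels in sgAAVS1 were 230 and 226 CPM non-treated, 202, 189 and 197 with IFNγ and 167 and 192 with IL-1β. In sgERH they were 128, 134 and 144 non-treated, 147 and 140 with IFNγ and 137, 130 and 121 with IL-1β. Every sgERH library lay below every sgAAVS1 library. The log2 fold change was -0.56 ± 0.06 (SE), with an edgeR adjusted p of 2.11e-08, and -0.40 with library totals.

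MRPL11, the protein at the base of the stalk where translation factors bind the large subunit, also fell. The gene (ENSG00000174547.13, chromosome 11, 66435075 to 66466738, − strand, 5 exons) gave 62.8 and 67.1 CPM in sgAAVS1 non-treated, 59.6, 68.3 and 58.0 with IFNγ and 60.6 and 59.0 with IL-1β. In sgERH it gave 41.9, 45.6 and 37.1 CPM, then 34.6 and 41.6, then 39.98, 43.6 and 43.7. Again the guides did not overlap. The log2 fold change was -0.61 ± 0.08 (SE) with an edgeR adjusted p of 3.34e-07. The positions given are those of the whole gene record, and the promoter window shown above lies inside them. The 5 exons are of the canonical transcript, whose introns hold 2169 bases.

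MRPL20, whose bacterial counterpart joins the large subunit early in assembly, lies on chromosome 1 from 1401909 to 1407293 (− strand, 4 exons, ENSG00000242485.6) and overlaps MRPL20-AS1 on the other strand. Its sgAAVS1 libraries ran from 176 to 216 CPM with a median of 195, and its sgERH libraries from 131 to 165 with a median of 142. The log2 fold change was -0.45 ± 0.06 (SE), with an edgeR adjusted p of 1.99e-06. MRPS2, a protein of the small subunit with a bacterial counterpart, lies on chromosome 9 from 135499984 to 135504673 (+ strand, 4 exons, ENSG00000122140.13). It ranged from 217 to 275 CPM (median 233) in sgAAVS1 and from 162 to 191 (median 175) in sgERH, a log2 fold change of -0.45 ± 0.06 (SE) with an edgeR adjusted p of 6.24e-07. For both genes the guides did not overlap.

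The proteins that line the tunnel through which the new chain leaves the large subunit include MRPL4, MRPL22 and MRPL23. MRPL4 (ENSG00000105364.14, chromosome 19, 10251901 to 10260055, + strand) ranged from 89.6 to 105 CPM in sgAAVS1 and from 61.6 to 80.8 in sgERH, with a log2 fold change of -0.49 ± 0.07 (SE) and an edgeR adjusted p of 7.43e-07. MRPL22, named after its values were seen (ENSG00000082515.18, chromosome 5, 154941073 to 154969411, + strand) ranged from 95.9 to 109 CPM in sgAAVS1 and from 63.5 to 88.5 in sgERH. Neither overlapped between guides. MRPL23 (ENSG00000214026.11, chromosome 11, 1947278 to 1984522, + strand) ranged from 10.4 to 22.1 CPM in sgAAVS1 and from 7.21 to 13.2 in sgERH, and these ranges overlapped. Its log2 fold change was -0.77 ± 0.15 (SE), with an edgeR adjusted p of 0.00012, and with uniquely mapped reads alone, which were few, it was -0.94 with an adjusted p of 0.0262.

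In all, 6 of 78 members had all 8 sgERH libraries below all 7 sgAAVS1 libraries (MRPL4, MRPL11, MRPL20, MRPL22, MRPS2 and MRPS34), against 9.56% of all genes. The reverse order was found for 0 members, against 8.1% of all genes. In CPM by library totals the counts were 4 members lower (MRPL11, MRPL22, MRPS2 and MRPS34) and 2 higher (MRPS12 and MRPS18A), against 5.74% and 13.2% of all genes.

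**Figure D2:**
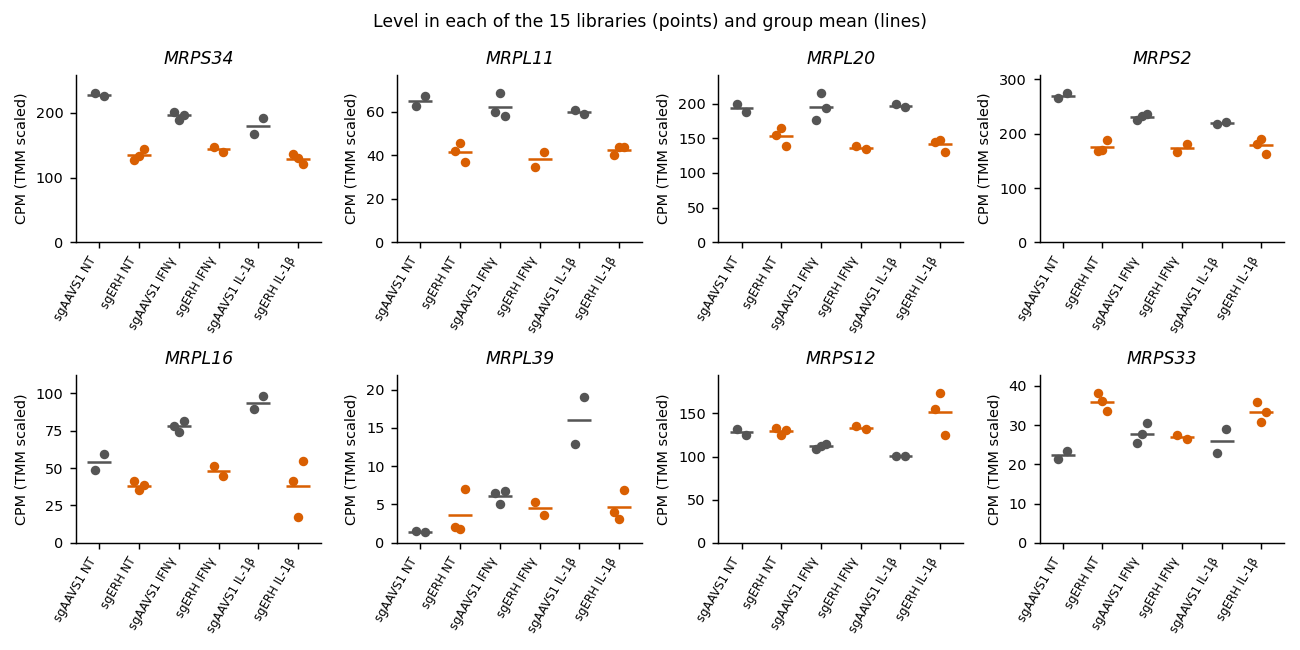
CPM scaled by TMM factors (y axis) in each of the 15 libraries for 8 members, by group on the x axis; points are libraries, lines are group means, grey is sgAAVS1 and orange sgERH. MRPS34, MRPL11, MRPL20 and MRPS2 keep the guides apart in every treatment, while MRPL39 is highest in the 2 sgAAVS1_IL-1β libraries, at 12.9 and 19.1 CPM.

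MRPL16 and MRPL48 had large fold changes with more spread. MRPL16 lies near the site of peptide bond formation in the large subunit (gene ENSG00000166902.5, chromosome 11, 59806140 to 59810778, − strand). In sgAAVS1 it had 48.5 and 59.7 CPM non-treated, 77.9, 74.3 and 81.5 with IFNγ and 89.4 and 98.2 with IL-1β. In sgERH the values were 41.1, 35.1 and 38.4, then 51.4 and 44.5, then 41.6, 17.3 and 54.7. The lowest of these was the library that stood apart, sgERH_IL-1β replicate 2, and within each treatment the guides did not overlap. The log2 fold change was -0.83 ± 0.18 (SE), with an edgeR adjusted p of 0.00224, and -0.73 without that library. MRPL48, a mitochondria-specific protein of the large subunit (ENSG00000175581.14, chromosome 11, 73787872 to 73865133, + strand), ranged from 31.4 to 50.5 CPM in sgAAVS1 and from 21.6 to 32.2 in sgERH, which overlapped at their edges, with a log2 fold change of -0.62 ± 0.11 (SE) and an edgeR adjusted p of 1.88e-05.

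Among the other named members that fell were MRPL51 (-0.36 ± 0.06, log2 fold change ± SE), MRPL36 (-0.42 ± 0.10) and MRPL58 (-0.42 ± 0.11), the last of which is a peptidyl-tRNA hydrolase built into the large subunit. With library totals MRPL58 no longer passed, at -0.26 with an edgeR adjusted p of 0.0522. MRPL21 (-0.40 ± 0.08) and MRPL12, the stalk protein that recruits translation factors (-0.30 ± 0.10), also fell, as did MRPS21 (-0.21 ± 0.06), and of these MRPL12 and MRPS21 did not pass with library totals. MRPL41, with the highest counts of the family, had a log2 fold change of -0.13 ± 0.06 and an edgeR adjusted p of 0.097, but without sgERH_IL-1β replicate 2, the library that stood apart, it was -0.18 with an adjusted p of 0.000978.

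The 4 members that rose were MRPS33, MRPL18, MRPS12 and MRPS18A. MRPS12 forms part of the decoding centre of the small subunit, and its gene (ENSG00000128626.12, chromosome 19, 38930944 to 38933168, + strand) starts next to that of SARS2, the mitochondrial seryl-tRNA synthetase, on the other strand. MRPS12 had 131 and 125 CPM in sgAAVS1_NT, 108, 112 and 115 with IFNγ and 100.3 and 101 with IL-1β. In sgERH it had 133, 125 and 130 non-treated, 135 and 132 with IFNγ and 155, 173 and 125 with IL-1β. The guides overlapped in non-treated cells and were apart with either cytokine. The average log2 fold change was 0.29 ± 0.07 (SE), with an edgeR adjusted p of 0.0011.

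MRPS33, a mitochondria-specific protein of the small subunit (ENSG00000090263.16, chromosome 7, 141002610 to 141015228, − strand), had 21.4 and 23.4 CPM in sgAAVS1_NT and 38.1, 36.2 and 33.7 in sgERH_NT. With IFNγ its values were 25.3, 27.6 and 30.5 in sgAAVS1 and 27.6 and 26.5 in sgERH, which overlapped. Its average log2 fold change was 0.33 ± 0.09 (SE). MRPL18, a protein of the central protuberance (ENSG00000112110.10, chromosome 6, 159789812 to 159798436, + strand), ranged from 68.9 to 86.6 CPM in sgAAVS1 and from 74.3 to 106 in sgERH, with a log2 fold change of 0.31 ± 0.08 (SE). MRPS18A rose by 0.25 ± 0.09 (SE) on the log2 scale with an edgeR adjusted p of 0.019. That call was lost without sgAAVS1_NT replicate 2, sgERH_IFNγ replicate 1 or sgAAVS1_IL-1β replicate 1 (adjusted p 0.052, 0.077 and 0.0592 by edgeR). Its 2 paralogs did not pass, with log2 fold changes of -0.05 ± 0.09 for MRPS18B, where every read was multimapping, and -0.15 ± 0.08 for MRPS18C.

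The second question was whether the difference between guides held in each treatment. In non-treated cells 17 members fell and 2 rose, against 13.7% and 12.4% of all genes (8 lower and 5 higher with library totals, against 7.65% and 20.2%). With IFNγ 10 fell and 0 rose, against 12.6% and 12.4% (5 and 5 with library totals, against 7.61% and 19.3%), and DESeq2 also had 0 that rose. With IL-1β 16 fell and 1 rose, against 13.1% and 13.3% (6 and 4 with library totals, against 8.04% and 19.1%). Between 52 and 56 of the 78 members had a log2 fold change below 0 in each treatment with TMM, and 37 did so in all 3, but with library totals 36, 33 and 41 did so in NT, IFNγ and IL-1β, and 19 in all 3. The median log2 fold change of the members was -0.15, -0.07 and -0.16 with TMM and 0.03, 0.08 and -0.01 with library totals, so its sign turned in NT and IFNγ. Its difference from the median gene was -0.187, -0.113 and -0.181 with TMM and -0.187, -0.113 and -0.179 with library totals, which are again nearly equal by construction.

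These counts depended on single libraries. In non-treated cells 12 members were called without sgAAVS1_NT replicate 2 and 7 without replicate 3, in place of 19. With IFNγ 4 and 6 were called without sgERH_IFNγ replicates 1 and 3, and 21 without sgERH_IL-1β replicate 2, in place of 10. With IL-1β 8 and 5 were called without sgAAVS1_IL-1β replicates 1 and 2, in place of 17.

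MRPL4, MRPL11, MRPL20, MRPL51, MRPS2 and MRPS34 fell in all 3 treatments with TMM, which is 6 of 78 members, against 6.81% of all genes, while with library totals 1 did, MRPS34, against 3.92%. With either scaling 0 members rose in all 3, against 5.61% of all genes with TMM and 9.43% with library totals. With TMM a further 5 fell in 2 treatments and 15 in 1, and 0 members were called in opposite directions. The 3 comparisons used separate libraries. Across the 78 members, the log2 fold changes of non-treated cells and of IFNγ had a Pearson r of 0.61 (Spearman 0.74), IFNγ and IL-1β had 0.41 (0.43), and non-treated cells and IL-1β had -1.89e-05 (0.28), while across all genes the Pearson r was 0.62 to 0.70. Genes are not independent replicates, and the members with few reads, such as MRPL39, weigh on the Pearson values. Of the 33 members called on average, 7 were called in no single treatment.

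**Figure D3:**
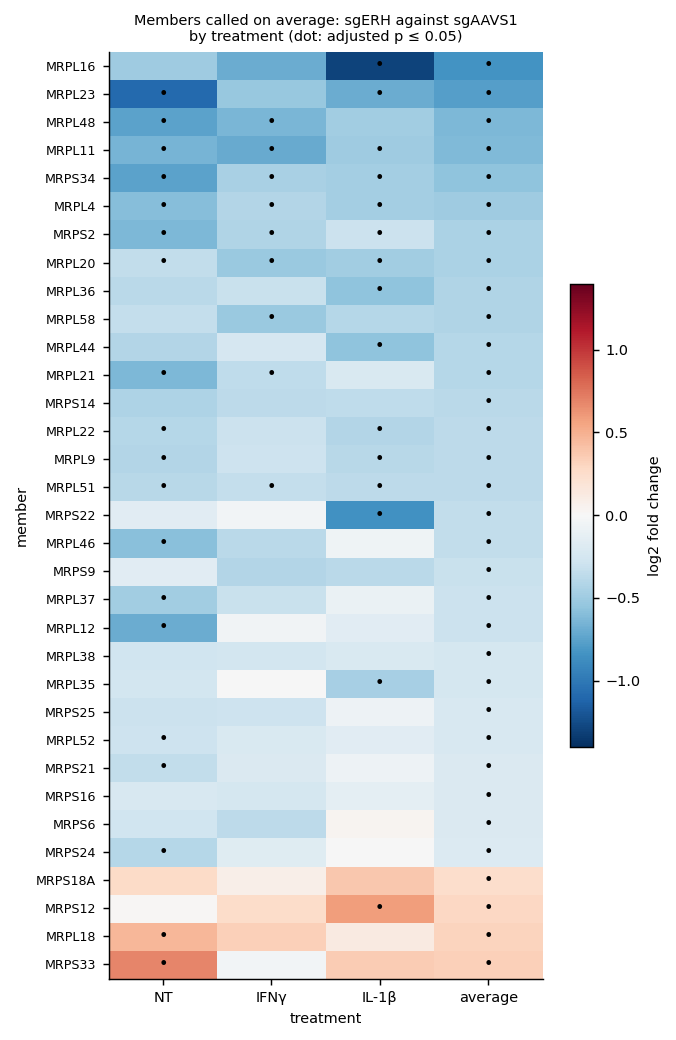
Log2 fold change (colour, TMM scaling) of the 33 members called on average, as rows, for sgERH against sgAAVS1 in non-treated, IFNγ-treated and IL-1β-treated cells and on average, as columns; a dot marks an edgeR adjusted p of at most 0.05. The 6 members with 3 treatment dots are MRPL4, MRPL11, MRPL20, MRPL51, MRPS2 and MRPS34, of which only MRPS34 is called in all 3 treatments with library totals, and the strongest single value is -1.30 for MRPL16 with IL-1β.

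Few members passed a 2-fold limit as well. In non-treated cells 1 did, MRPL23, at -1.09 ± 0.25 (log2 fold change ± SE, edgeR adjusted p 0.00213), against 2.3% of all genes lower and 5.95% higher by this limit. Its CPM were 17.4 and 22.1 in sgAAVS1_NT and 10.3, 8.65 and 9.01 in sgERH_NT. Without sgAAVS1_NT replicate 3 its value was -0.91 with an adjusted p of 0.0589. With library totals MRPS31 was the 1 member past the limit, at 1.16 (edgeR adjusted p 0.048). With IFNγ 0 members passed it by edgeR or DESeq2, against 2.37% and 5.24% of all genes. With IL-1β 2 did, MRPL39 at -1.77 ± 0.39 (edgeR adjusted p 0.00157) and MRPL16 at -1.30 ± 0.30 (0.00832), against 2.8% lower and 5.68% higher. Without sgAAVS1_IL-1β replicate 2 the adjusted p were 0.052 and 0.0606 by edgeR, and the count was 0. It was 1 without sgERH_IL-1β replicate 2 and 5 without replicate 3, and in non-treated cells it was 3 without sgERH_NT replicate 2. On average over treatments 0 members passed the limit by either tool, against 2.14% and 6.75%.

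The third question was whether the cytokines changed these genes. IL-1β raised 1 of the 78 members in sgAAVS1, against 0.838% of all genes. This was MRPL39, a mitochondria-specific protein of the large subunit (ENSG00000154719.14, chromosome 21, 25585656 to 25607517, − strand, 10 exons), which had 1.47 and 1.45 CPM in sgAAVS1_NT and 12.9 and 19.1 CPM in sgAAVS1_IL-1β. The log2 fold change was 3.43 ± 0.53 (SE), with an edgeR adjusted p of 0.000682. Without sgAAVS1_NT replicate 2 the adjusted p was 0.0596. In sgAAVS1_IFNγ it had 6.44, 5.04 and 6.76 CPM, a log2 fold change of 2.04 ± 0.54 with an edgeR adjusted p of 0.0794. In sgERH it had 2.09, 1.80 and 6.97 CPM non-treated, 5.36 and 3.63 with IFNγ and 4.07, 3.05 and 6.84 with IL-1β, and the groups overlapped. The guide difference in its IL-1β response was -3.08 ± 0.69 on the log2 scale with an edgeR adjusted p of 0.205, so it was not shown. Without sgERH_IL-1β replicate 2, 9 members were called for IL-1β in sgAAVS1, and without sgERH_IL-1β replicate 3 or sgERH_NT replicate 2 they were 3 and 2.

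In the other cytokine comparisons 0 members passed edgeR's test, as by DESeq2. The shares of all genes that passed were 0.98% for IFNγ in sgAAVS1, 0.0299% for IFNγ in sgERH and 0.957% for IL-1β in sgERH. An unadjusted p under 0.05 was reached by 8 (10.3%), 5 (6.41%) and 12 (15.4%) of the members in these comparisons, against 9.37%, 6.64% and 14% of all genes. For the difference between guides in the response, 0 members passed for either cytokine, against 0.247% of all genes for IFNγ and 0% for IL-1β. Here an unadjusted p under 0.05 was reached by 3 members (3.85%) for IFNγ, against 5.84% of all genes, and by 13 (16.7%) for IL-1β, against 11.1%. Without sgERH_IL-1β replicate 3, 4 members passed for IL-1β in sgERH and 2 for the guide difference, and 1 passed for IFNγ in sgAAVS1, as without sgERH_NT replicate 2 or 3, or 2 without sgERH_IL-1β replicate 2. The medians of the 78 members were between -0.06 and 0.10 on the log2 scale in these comparisons and in that of IL-1β in sgAAVS1.

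The other genes of mitochondrial translation were taken from lists chosen with earlier results known, and apart from MTERF3, MTIF2 and TFB2M those named were picked after their values were seen. Of 6 tested genes listed as mitoribosome proteins with other names, 5 fell with TMM and 2 with library totals, and 0 rose with either. Those that fell included PTCD3 of the small subunit (-0.60 ± 0.09, log2 fold change ± SE) and GADD45GIP1 of the large subunit (-0.41 ± 0.07). OXA1L, on the list though not a ribosomal protein, also fell (-0.19 ± 0.07, edgeR adjusted p 0.0309). DAP3 was at -0.15 ± 0.07 with an edgeR adjusted p of 0.0583. Of 29 genes for mitoribosome assembly and rRNA modification 12 fell (41.4%) and 3 rose (10.3%) with TMM, and 4 were lower and 8 higher with library totals. Of all genes, 23.2% fell and 25.5% rose with TMM, and 14.2% were lower and 37.5% higher with library totals. Among the 3 that rose, MRM1 had 48.55% multimapping reads, so its value is uncertain. MTERF3, a regulator of mitochondrial transcription and ribosome assembly, passed the 2-fold limit at -1.24 ± 0.23 (edgeR adjusted p 5.14e-05), from a mean of 6.49 CPM in sgAAVS1 to 2.45 in sgERH. MTG1, a GTPase of the large subunit's assembly, was at -0.77 ± 0.11, and YBEY, an RNA-processing enzyme, rose by 0.66 ± 0.16.

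The next lists also stand beside 23.2% of all genes lower and 25.5% higher with TMM, and 14.2% and 37.5% with library totals. Of 14 translation factors 5 fell (35.7%) and 2 rose (14.3%) with TMM (2 and 3 with library totals). MTIF2, the initiation factor that brings the first tRNA, passed the 2-fold limit at -1.02 ± 0.13 (edgeR adjusted p 3.13e-07), from a mean of 34.5 CPM in sgAAVS1 to 17.6 in sgERH, and TUFM, the elongation factor, fell by 0.37 on the log2 scale (SE 0.07). Of 20 mitochondrial aminoacyl-tRNA synthetase genes, which charge the tRNAs and include the amidotransferase subunits, 3 fell (15%) and 4 rose (20%) with TMM (0 and 4 with library totals). Among the 4 that rose with TMM, VARS2 had 99.9% multimapping reads, so its value is uncertain. Of 17 genes for mitochondrial DNA and RNA maintenance 5 fell (29.4%) and 4 rose (23.5%), or 2 and 5 with library totals. Those that fell included TFAM, which packs mitochondrial DNA, at -0.51 ± 0.07, and SLIRP, which stabilises mitochondrial mRNA, at -0.50 ± 0.06. They also included SSBP1, where 38.8% of reads were multimapping. The 4 that rose were LRPPRC (0.22 ± 0.08), POLG (0.30 ± 0.09), TWNK (0.32 ± 0.09) and TFB2M, a mitochondrial transcription factor. TFB2M passed the 2-fold limit at 1.06 ± 0.41 (edgeR adjusted p 0.0452), with low means of 4.22 CPM in sgAAVS1 and 6.65 in sgERH. Of 11 regulators of nuclear genes for mitochondria 1 fell, GABPB1 at -0.27 ± 0.09, and 1 rose, ELK1 at 0.44 ± 0.10 (0 and 4 with library totals), while YY1 was at 0.11 ± 0.07 and NRF1 at -0.23 ± 0.15, neither past the test.

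Beside these lists, 62 of 82 cytosolic ribosomal protein genes fell and 1 rose with TMM (32 lower and 4 higher with library totals), with a median that differed by -0.312 from that of all genes. Of 78 nuclear respiratory chain genes, without pseudogene symbols, 58 fell and 0 rose (36 and 6 with library totals), with a median that differed by -0.347. For the mitochondrial ribosomal protein genes this difference was -0.155. These differences between lists were not tested. The shares of all genes were again 23.2% lower and 25.5% higher with TMM, and 14.2% and 37.5% with library totals.

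**Figure D4:**
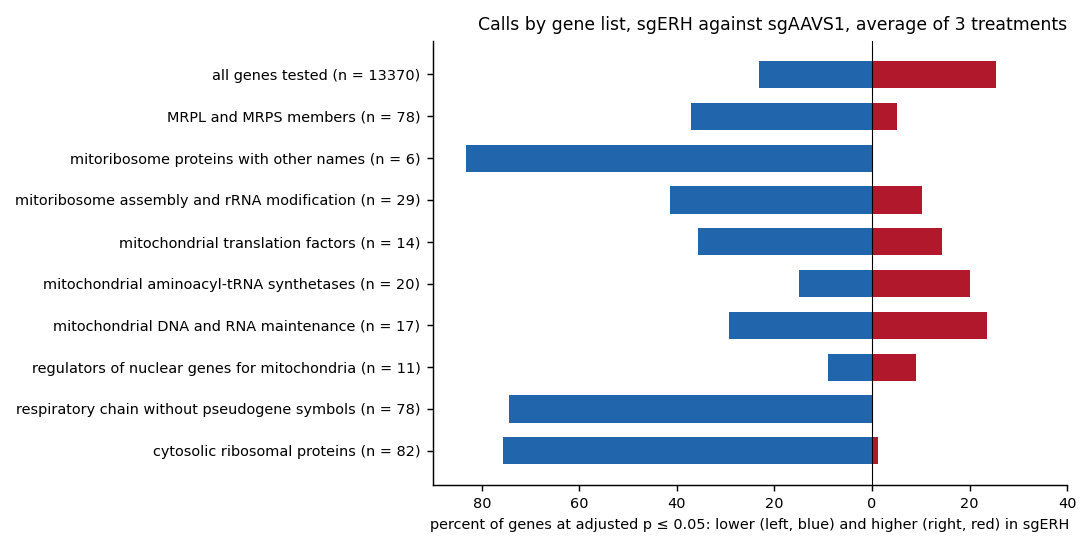
Percent of each gene list called lower (left, blue) or higher (right, red) in sgERH on average over treatments, at an edgeR adjusted p of at most 0.05 with TMM scaling; n is the number of genes tested. The mitochondrial ribosomal protein genes reach 37.2% lower and 5.13% higher, beside 23.2% and 25.5% of all genes; with library totals 13 members are lower and 14 higher.

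Gene structure is given by call, as a description. The 29 that fell had a median intron GC content of 46.9% and 4 exons, the 45 that were not called had 44.3% and 5, and the 4 that rose had 45.3% and 3.5. Across the 78 members the average log2 fold change had a Pearson r of -0.11 with intron GC content, -0.04 with the log10 of gene span plus 1 and -0.09 with the log10 of the exon count plus 1. A divergent protein-coding partner was found for 5 of the 29 that fell, 2 of the 4 that rose and 19 of the other 45.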

How the data were processed

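RNA was measured by QuantSeq in 18 libraries. The authors trimmed reads with Trim Galore 0.6.2 and checked them with FastQC 0.11.8 (versions from the submitters' processing notes). They aligned to GRCh38 with SlamDunk, and 3-GAmES gave the 3′ end windows, collapsed per gene symbol. The deposited values are raw read counts per gene, with the authors' counts of multimapping reads beside them.

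Counts of the 15 libraries kept by the study were tested with edgeR 4.0.16 (R 4.3.3; robust quasi-likelihood F test, TMM, filterByExpr, 1 model of 6 groups, 13370 genes, Benjamini-Hochberg adjustment), and the common biological coefficient of variation was 12.6%. The contrasts were the guides within each treatment and averaged, each cytokine against NT within each guide, and the guide difference of each response. Alternatives were DESeq2 1.42.0, which the study used, its size factors, library totals (chosen after seeing the data), no filter, all 18 libraries, only the groups compared, uniquely mapped reads, replicate number as a block, and leaving out each library. The code was tested on simulated data. Members and lists were chosen with earlier results of these data known. Named members were the 10 lowest and 10 highest called on average, those called with a 2-fold change, the 5 most significant called in each cytokine comparison, the 5 highest and lowest levels, those with over 20% multimapping reads, and MRPS18A, MRPS18B, MRPS18C, MRPL12, MRPL58 and ERH; from other lists, genes called with a 2-fold change on average. Others are said to be named after their values were seen. Positions and spans are those of whole gene records in GENCODE 44, while exons and introns are of the canonical transcript, which can be much shorter.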

Additional observations from a re-analysis of the deposited data

Results flagged for a closer look

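The 3 libraries that the comparisons left out held a larger share of reads on the 78 members than any sgAAVS1 library used, of which the highest was 0.642%. The share was 0.750% in sgAAVS1_NT replicate 1, 0.661% in sgERH_IFNγ replicate 2 and 0.654% in sgAAVS1_IL-1β replicate 3. In sgAAVS1_NT replicate 1, 26 members lay above and 38 below all 15 libraries in CPM by library totals, against 20.4% and 48.3% of all genes, and 3 members had 0 reads. ERH stood at 52.7 CPM there, below every library of either guide, although the label names the control guide. MRPL12 stood at 93.4 CPM there, against 21.5 to 37.9 in the 15 libraries, and MRPL38 at 190 against 58.9 to 77.0. In sgERH_IFNγ replicate 2, 27 members lay above and 33 below, against 25.6% and 31.8% of all genes, and MRPL55 stood at 128 CPM against 55.7 to 107. In sgAAVS1_IL-1β replicate 3, 22 lay above and 14 below, against 14.8% and 25.4%, and MRPS15 stood at 323 CPM against 110 to 161. These libraries also differed in depth, with 3811492, 4293010 and 11821239 counts. The members named here were picked after their values were seen. The cause was not tested.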

How the results depend on the processing

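The number of members called between guides was 19 in NT, 10 with IFNγ, 17 with IL-1β and 33 on average. With all 18 libraries it was 7, 1, 0 and 9, and DESeq2 gave 19, 9, 15 and 30. With library totals it was 13, 10, 10 and 27, and the median log2 fold change of the members moved to 0.03 in NT and 0.04 on average; which scaling is right was not tested. With only the groups compared it was 27 in NT, 21 for IFNγ and 5 for IL-1β, and the average has no such fit. Leaving out each library gave 7 to 28, 4 to 21, 5 to 22 and 28 to 42. For IFNγ against NT in sgAAVS1 the count of 0 became 1 without the filter and 3 with only the groups compared, and 0 to 2 with a library left out. For IL-1β in sgAAVS1 the count of 1 became 3 without the filter, 0 with all 18 libraries and 10 with only the groups compared, and 0 to 9 with a library left out. For IL-1β in sgERH it was 0 to 4, and for the guide difference in the IL-1β response 0 to 2 and 1 without the filter. Members past the 2-fold limit, 1 in NT and 2 with IL-1β, were 4 and 0 with all 18 libraries, and 0 to 3 and 0 to 5 with a library left out. Replicate numbers showed no clear pairing of the samples: deviations of same-numbered libraries had a median r of 0.00693 over 30 pairs (-0.0597 to 0.142), and 6 of 15 libraries correlated best with their own number. In groups of 2 libraries the deviations mirror each other, so their correlations come with both signs. The median therefore cannot exclude pairing. With the replicate block the guide counts were 18, 10, 17 and 31, with 29 of the 33 shared on average, the count past 2-fold was 0 in NT and 3 with IL-1β, and the cytokine counts in sgAAVS1 were 1 for IFNγ and 3 for IL-1β. The cause of these shifts was not tested. With uniquely mapped reads MRPS18B, MRPL45 and MRPS36 had too few reads to be tested.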

Other observations

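MRPS31, a mitochondria-specific protein of the small subunit, had 3.57 and 3.08 CPM with TMM scaling in sgAAVS1_NT, 6.86, 4.67 and 7.37 in sgAAVS1_IFNγ and 9.89 and 11.3 in sgAAVS1_IL-1β. The order of these groups is that of MRPL39. Its log2 fold change for IL-1β in sgAAVS1 was 1.67 ± 0.44 (SE), with an edgeR adjusted p of 0.0615, and the guide difference of that response was -1.62 ± 0.55 with an edgeR adjusted p of 0.349. MRPS22, another mitochondria-specific protein of the small subunit, had 32.1 and 30.5 CPM in sgAAVS1_NT and 53.5 and 52.5 in sgAAVS1_IL-1β, a log2 fold change of 0.76 ± 0.21 with an edgeR adjusted p of 0.0721. The same order of group means in sgAAVS1 (NT, IFNγ, IL-1β) was found for members with more reads than MRPS31. MRPL13 had 73.9, 121.5 and 164.9 CPM, and 90.2 in sgERH_IL-1β, and MRPL16 had 54.1, 77.9 and 93.8. Means of MRPL9 ran the other way, at 124.3, 108.5 and 103.8. With the replicate block MRPL13 also passed the 2-fold limit between guides with IL-1β, at -1.07 (edgeR adjusted p 0.00441). In sgERH_IL-1β replicate 2, the library with the highest multimapping share of the 15, MRPS22 had 20.6 CPM against 29.7 and 37.9 in the other replicates of its group, and MRPL22 had 63.5 against 85.8 and 75.5. These genes were singled out after their values were seen.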
